A study of Mus musculus with 11 samples.

Results

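The genes described here are the liver hormone hepcidin and its closest partners in iron handling: Hamp, Hamp2, Hfe, Tfrc, Tfr2, Trf, Slc40a1, Fth1, Ftl1 and Cp. They were taken from a list of names, and each was represented by the array row annotated to that gene alone. All 10 genes had exactly 1 such row, among 30142 genes with a row of their own, and all 10 were among the 18337 genes bright enough to be tested. A further 2 rows named Ftl1 together with other genes and were not used. The retained Ftl1 row carries 3 gene identifiers in the platform annotation, of which 1 is the pseudogene Ftl1-ps2, so its signal can include pseudogene copies.

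RNA came from hepatocytes of male mice aged 12 weeks, measured on 11 expression arrays in 4 groups. Wildtype (n = 2) carries the source name Nemo without Cre, and Nemo KO (n = 3) is the same line with Cre, in which Nemo is deleted in liver parenchymal cells. Cxcr6 KO (n = 3) lacks the chemokine receptor gene Cxcr6 and has the source name Nemo_CXCR6 without Cre. Double KO (n = 3) is that line with Cre, so both genes are deleted. Nemo, encoded by Ikbkg, is the scaffold protein of the kinase complex that switches on NF-kB. The promoter that drives Cre was not given in the sources used here. Cxcr6 status and mouse line cannot be told apart, whereas both Nemo comparisons lie within a line. The labels call the replicates biological.

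Values are log2 signals, so a difference of 1 is a doubling. Arrays have no read depth, and their number limits the precision. The highest value in the table was 19.93, and signals near it are compressed. The 9 hepatocyte markers tested averaged 18.02 to 18.18 per array, with group means of single markers from 12.52 (Hnf4a) to 19.93 (Alb). The 4 tested markers of T, NK and NKT cells averaged 5.17 to 5.69, near the column medians of 5.19 to 5.38. Markers of liver endothelial cells averaged 6.40 to 9.08 and those of Kupffer cells and macrophages 6.54 to 9.09, so other liver cells contributed signal. Ikbkg lay between 8.76 and 9.49 and Cxcr6 between 4.94 and 5.56 over all arrays, so these rows do not show either deletion. Both wildtype arrays correlated at 0.984, below the 0.990 to 0.995 of other replicate pairs, and differed in the proliferation marker Mki67 (5.35 in replicate 1, 11.18 in replicate 2). The differences of Hamp, Hamp2, Hfe and Slc40a1 from wildtype are therefore also given without each wildtype array.

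Hepcidin is a small peptide hormone that hepatocytes secrete. It binds ferroportin, the iron exporter encoded by Slc40a1, and causes its removal from the cell surface, which lowers the release of iron into blood. Hepatocytes raise hepcidin when iron is plentiful, through bone morphogenetic protein (BMP) signalling that the membrane proteins Hfe, transferrin receptor 2 (Tfr2) and hemojuvelin (Hjv) enhance, and in inflammation, through interleukin-6 and Stat3. Mice have a pair of hepcidin genes, and Hamp encodes the peptide known to regulate iron, while Hamp2 is a close copy.

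The region upstream of each hepcidin gene is shown because the signals move together below and both genes descend from a common sequence. In the RefSeq gene table for GRCm38.p6 the genes neighbour each other on chromosome 7, with the pseudogene Usf2-ps1 between them. The lines below give the 250 bases before each start site, 5′ to 3′ on the gene's own strand, from RefSeq and GRCm38.p6: chr7:30944030-30944279 (minus strand) for Hamp and chr7:30924182-30924431 (minus strand) for Hamp2. Capitals mark matches to GGCGCC, the core of the BMP element known in hepcidin promoters, and to TTCNNNGAA, the general Stat site.
Hamp: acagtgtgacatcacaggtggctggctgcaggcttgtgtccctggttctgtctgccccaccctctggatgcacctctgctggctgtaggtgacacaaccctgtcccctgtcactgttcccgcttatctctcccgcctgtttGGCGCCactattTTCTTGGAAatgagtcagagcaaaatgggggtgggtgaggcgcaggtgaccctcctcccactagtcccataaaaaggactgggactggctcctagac
Hamp2: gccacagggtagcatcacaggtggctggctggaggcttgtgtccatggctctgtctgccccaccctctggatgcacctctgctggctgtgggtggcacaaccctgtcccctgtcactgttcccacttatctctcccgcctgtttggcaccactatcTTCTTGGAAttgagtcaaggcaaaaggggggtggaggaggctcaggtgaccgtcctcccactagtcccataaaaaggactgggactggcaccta
Over 247 aligned bases the sequences were 91.9% identical. Both hold TTCTTGGAA, a match to TTCNNNGAA, which 7.02% of all 32851 promoter windows of this length hold. GGCGCC stands in Hamp, 109 to 104 bases before the start site, and not in this window of Hamp2, and 9.59% of all windows hold it. Both motifs read the same on either strand, and their matches do not overlap each other. Of the 10 genes, 8 had at least 1 window (Trf and Slc40a1 had none), and outside the hepcidin genes the search found 1 match to GGCGCC, in Tfrc, and none to TTCNNNGAA. A match is a description of these letters only.

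Both hepcidin genes had their highest signals in wildtype hepatocytes. Hamp had a log2 signal of 19.12 and 18.96 in the wildtype arrays, 18.73, 18.04 and 17.97 in Nemo KO, 18.14, 18.34 and 17.85 in Cxcr6 KO, and 18.60, 17.71 and 18.70 in double KO. Every wildtype array lay above all 9 other arrays, while the arrays of the other groups overlapped. Hamp2 had 18.05 and 18.12 in wildtype, 17.47, 16.82 and 16.77 in Nemo KO, 17.03, 17.23 and 16.78 in Cxcr6 KO, and 17.60, 16.59 and 17.24 in double KO. Here too both wildtype arrays stood above the rest and the remaining groups overlapped. A position of both wildtype arrays above all others was found in 2.86% of the genes tested and in 3 of the 10 iron genes, the third being Slc40a1. This feature was chosen after the values were seen. Because the rows of Hamp and Hamp2 can share signal, they may not count as separate observations.

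Neither hepcidin gene passed the test in any comparison. Against wildtype, Hamp had a log2 fold change of -0.79 ± 0.32 (SE) in Nemo KO (1.73-fold lower, adjusted p = 0.171). In Cxcr6 KO it had -0.93 ± 0.32 (1.91-fold lower, adjusted p = 0.309). Hamp2 had -1.06 ± 0.30 in Nemo KO (2.08-fold lower, adjusted p = 0.087) and -1.07 ± 0.30 in Cxcr6 KO (2.09-fold lower, adjusted p = 0.198). These pairs of comparisons share the wildtype arrays. Without wildtype replicate 1 or 2, Hamp had -0.71 or -0.87 in Nemo KO (adjusted p 0.456 and 0.22) and -0.85 or -1.01 in Cxcr6 KO (adjusted p 0.375 and 0.348). Without wildtype replicate 2 the Hamp2 difference was -1.02 in Nemo KO (adjusted p = 0.128) and -1.03 in Cxcr6 KO (adjusted p = 0.29), and without replicate 1 it was -1.10 in both. In the double KO the Hamp difference from Nemo KO was 0.09 ± 0.29, with a 95% interval of -0.56 to 0.74, and from Cxcr6 KO 0.23 ± 0.29, with an interval of -0.42 to 0.88. These intervals leave room for a change in either direction. The spread within double KO was wide, with replicate 2 lowest for both genes. Hamp values this close to the top of the scale can understate differences.

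**Figure D1:**
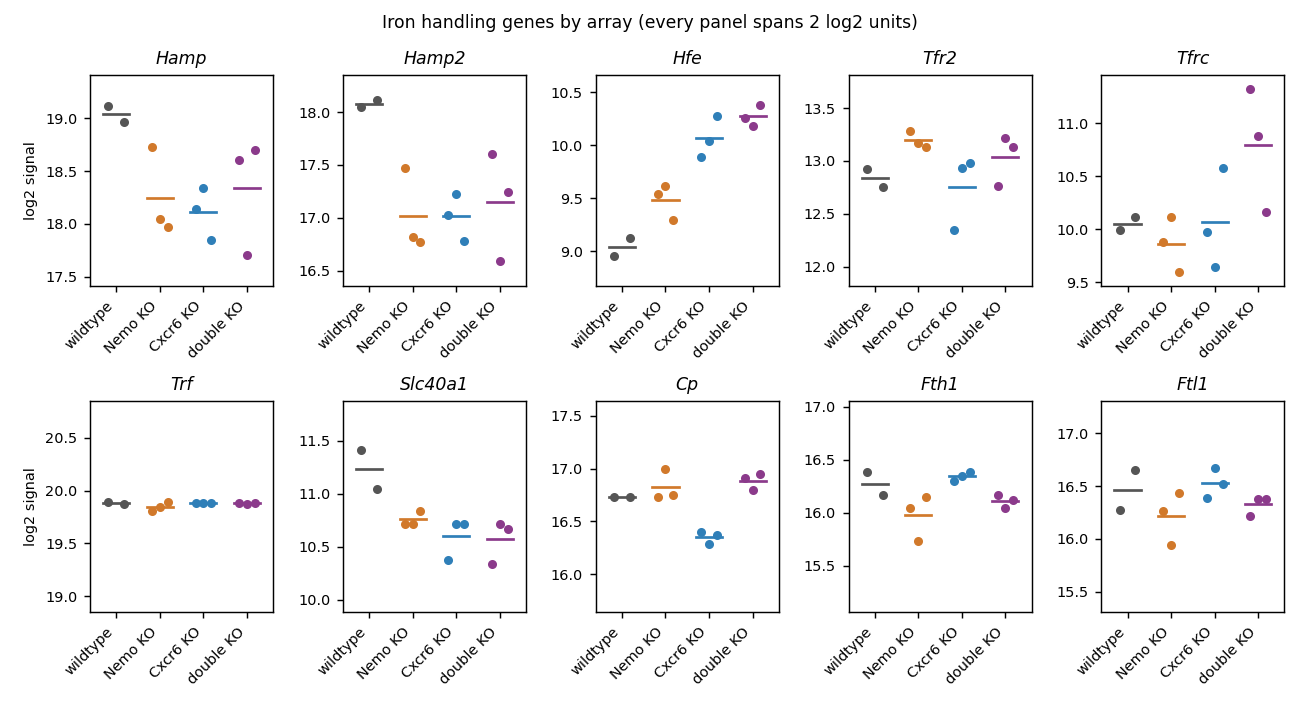
Log2 signal (y axis) of the 10 iron genes in each of the 11 arrays, by genotype (x axis), with points in order of replicate number and a bar for each group mean. Every panel spans 2 log2 units; Hamp, Hamp2 and Slc40a1 are highest in both wildtype arrays, Hfe is higher in every Cxcr6 KO and double KO array than in the rest, Cp is lowest in Cxcr6 KO, and Trf stays between 19.81 and 19.89.

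The hepcidin signals ran in parallel from array to array. Their Pearson correlation was 0.953 over the 11 arrays. By this measure each was the gene most like the other in a ranking of named genes. That ranking left out tested genes with certain kinds of symbol, such as Gm and Rik. The arrays share groups, and the rows of such similar transcripts can share signal, so the correlation is a description. The next genes most like Hamp were Lgalsl (0.858), Tars (0.848), Cldn14 (0.838) and Cald1 (0.838), and the next most like Hamp2 were Fndc3a (0.876), Klhdc2 (0.873), Zfp326 (0.851) and Cldn14 (0.842).

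**Figure D2:**
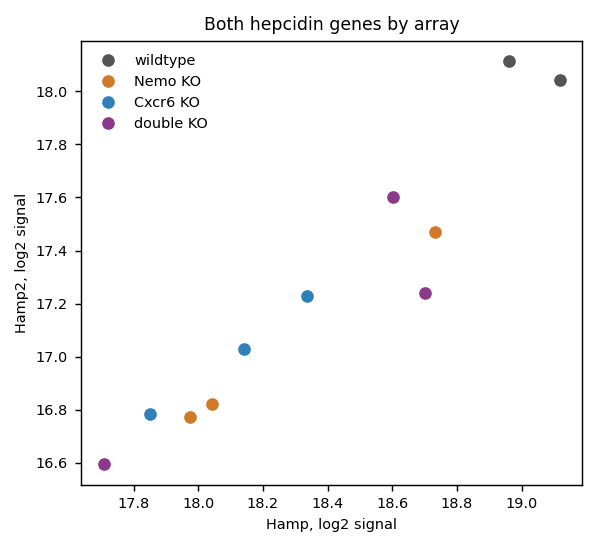
Log2 signal of Hamp (x axis) and Hamp2 (y axis), 1 point per array, coloured by genotype. The points rise together (Pearson correlation 0.953 over 11 arrays), with both wildtype arrays at the upper right and the other genotypes mixed.

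Hfe was the iron gene that separated the mouse lines. Hfe, an MHC class I-like protein that binds the transferrin receptor and promotes hepcidin expression, is the gene mutated in the common form of hereditary haemochromatosis. Its log2 signal was 8.95 and 9.12 in wildtype, 9.54, 9.61 and 9.29 in Nemo KO, 9.89, 10.04 and 10.28 in Cxcr6 KO, and 10.25, 10.18 and 10.38 in double KO. Every array without Cxcr6 lay above every array with Cxcr6, a pattern seen in 0.725% of the genes tested and in 1 of the 10 iron genes. This pattern too was chosen after the values were seen. Within the Cxcr6-intact line, each Nemo KO array also lay above each wildtype array. Neighbouring means in the order double KO, Cxcr6 KO, Nemo KO, wildtype were apart except for the first pair, whose arrays overlapped.

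Hfe rose in Cxcr6 KO against wildtype by 1.03 ± 0.14 (2.04-fold, 9.04 ± 0.12 (SD, n = 2) to 10.07 ± 0.19 (n = 3), adjusted p = 0.0309). It rose in double KO against Nemo KO by 0.79 ± 0.12 (1.73-fold, 9.48 ± 0.17 to 10.27 ± 0.10, n = 3 each, limma adjusted p = 0.0414). These comparisons share no array, but the fit takes 1 spread from all 11 arrays, so the tests are not fully separate. Hfe was the single iron gene called in each, 1 of 10 beside 0.256% of all genes in Cxcr6 KO against wildtype and 1 of 10 beside 0.594% in double KO against Nemo KO. Hfe was also the single iron gene whose arrays lay higher without overlap in both, as did 2.6% of all genes, and it was among the 17 genes, 0.0927% of those tested, that were called higher in both. The Nemo comparisons did not pass, with 0.44 ± 0.14 in Nemo KO against wildtype (adjusted p = 0.103) and 0.20 ± 0.12 in double KO against Cxcr6 KO (95% interval -0.08 to 0.49, adjusted p = 0.314). Both calls lay close to the threshold. In double KO against Nemo KO the call ended without any single array of Nemo KO, Cxcr6 KO or double KO (log2 fold change 0.70 to 0.86, adjusted p 0.0501 to 0.123), and when the fit held just the compared groups (adjusted p = 0.1). In Cxcr6 KO against wildtype it ended without Nemo KO replicate 1, Cxcr6 KO replicate 2 or 3, or double KO replicate 1 or 3 (0.93 to 1.05, adjusted p 0.0518 to 0.123), with just the compared groups (adjusted p = 0.268), with each array centred on its median (1.01, adjusted p = 0.0632) and with array weights (1.04, adjusted p = 0.0863). For Nemo KO against wildtype, Hfe had 0.36 without wildtype replicate 1 and 0.53 without replicate 2, and for Cxcr6 KO the call held without wildtype replicate 1 (0.95, adjusted p = 0.0372) and without replicate 2 (1.12, adjusted p = 0.0256).

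Tfr2, the hepatocyte sensor of iron-loaded transferrin, did not pass in any comparison. Its log2 signal was 12.92 and 12.76 in wildtype, 13.29, 13.17 and 13.14 in Nemo KO, 12.35, 12.93 and 12.98 in Cxcr6 KO, and 12.76, 13.22 and 13.13 in double KO. The Nemo KO arrays lay above both wildtype arrays, and in the other comparisons the groups overlapped. The Nemo differences were 0.36 ± 0.20 against wildtype (adjusted p = 0.309) and 0.29 ± 0.18 in double KO against Cxcr6 KO (adjusted p = 0.324).

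Tfrc, transferrin receptor 1, takes transferrin-bound iron into cells, and its messenger RNA is stabilised by the iron regulatory proteins when iron is low. Its log2 signal was 9.996 and 10.11 in wildtype, 9.88, 10.11 and 9.59 in Nemo KO, 9.98, 9.65 and 10.57 in Cxcr6 KO, and 11.33, 10.88 and 10.16 in double KO. Double KO had the highest mean, and each of its arrays lay above each Nemo KO array, but double KO replicate 3 lay within the range of Cxcr6 KO. The difference was 0.93 ± 0.31 from Nemo KO (1.91-fold, adjusted p = 0.203) and 0.73 ± 0.31 from Cxcr6 KO (1.65-fold, adjusted p = 0.159), so neither passed. The 9 proliferation markers tested averaged 6.41 to 8.19 in double KO, 6.33 to 6.58 in Nemo KO, 5.53 to 5.72 in Cxcr6 KO and 5.48 to 7.52 in wildtype. In double KO against Cxcr6 KO 1 of them (Ect2) rose, beside 3.44% of all genes, and all 9 had a higher mean. There 6 had an unadjusted p under 0.05 in limma (29.1% of all genes) and 7 lay higher without overlap (13.3%). The part of these markers in the Tfrc values was not tested. In the same ranking of named genes, those most like Tfrc were Pigr (0.894), Vps45 (0.877), Cept1 (0.872), Snx13 (0.867) and Mmp19 (0.861).

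Trf, serum transferrin, is among the most abundant hepatocyte transcripts. Its log2 signal lay between 19.81 and 19.89 in all 11 arrays, within 0.08 of itself and next to the top of the scale, and 5 arrays held the identical value of 19.89. The estimated differences lay between -0.03 and 0.04, none passed (adjusted p 0.777 to 0.991 over the 4 pairwise comparisons), and at this ceiling they do not limit how much the RNA differed.

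Ferroportin and ceruloplasmin act together in iron export, ferroportin as the exporter and ceruloplasmin as the ferroxidase that oxidises the iron. Slc40a1 had a log2 signal of 11.42 and 11.05 in wildtype, 10.72, 10.72 and 10.84 in Nemo KO, 10.38, 10.72 and 10.72 in Cxcr6 KO, and 10.34, 10.72 and 10.66 in double KO. Both wildtype arrays were the highest of all and the other groups overlapped. The same value, 10.72, stood in 5 arrays to the last digit deposited, and 10.3% of all genes tested had 5 or more of 11 arrays tied in this way. Slc40a1 had -0.47 ± 0.16 in Nemo KO against wildtype (1.39-fold lower, adjusted p = 0.121) and -0.63 ± 0.16 in Cxcr6 KO against wildtype (1.54-fold lower, adjusted p = 0.181), and did not pass. Without wildtype replicate 1 these became -0.29 (adjusted p = 0.492) and -0.44 (adjusted p = 0.286), and without replicate 2 -0.66 (adjusted p = 0.0542) and -0.81 (adjusted p = 0.0756). Macrophages of the liver also express Slc40a1. The 13 markers of Kupffer cells and macrophages averaged 6.54 to 7.58 in wildtype, 7.23 to 8.78 in Nemo KO, 6.90 to 7.24 in Cxcr6 KO and 8.09 to 9.09 in double KO. Their part in the Slc40a1 values was not tested.

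Cp rose with Nemo deletion in mice without Cxcr6. Its log2 signal was 16.40, 16.29 and 16.37 in Cxcr6 KO and 16.91, 16.80 and 16.95 in double KO, against 16.73 in both wildtype arrays and 16.73, 16.99 and 16.75 in Nemo KO. Cxcr6 KO lay below all 8 other arrays, which was the case for 3.38% of the genes tested. This pattern too was chosen after the values were seen. Nemo KO overlapped both wildtype and double KO, while every double KO array lay above both wildtype arrays. The rise in double KO against Cxcr6 KO was 0.53 ± 0.09 (1.45-fold, adjusted p = 0.016). Cp was the single member called in this comparison, 1 of 10 beside 7.41% of all genes tested, a share near the background. In Cxcr6 KO against wildtype it had -0.38 ± 0.10 (1.30-fold lower, adjusted p = 0.181) and in Nemo KO against wildtype 0.09 ± 0.10 (adjusted p = 0.612). The difference between the Nemo effects, 0.44 ± 0.13, did not pass (adjusted p = 0.287). The call in double KO against Cxcr6 KO ended without Cxcr6 KO replicate 2, Cxcr6 KO replicate 3 or double KO replicate 3 (0.50 to 0.54, adjusted p 0.0598 to 0.0661).

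Fth1 and Ftl1 encode the heavy and light chains of ferritin, the iron storage shell, whose translation the iron regulatory proteins block when iron is low. Fth1 had a log2 signal of 16.38 and 16.17 in wildtype, 16.05, 15.73 and 16.15 in Nemo KO, 16.30, 16.35 and 16.38 in Cxcr6 KO, and 16.17, 16.04 and 16.12 in double KO. In both lines every array with Nemo deleted lay below every array with Nemo intact. Over all genes this held for 24.7% in Nemo KO against wildtype and 24.4% in double KO against Cxcr6 KO. The share for both lines together was not counted. Ftl1 had 16.27 and 16.65 in wildtype, 16.26, 15.94 and 16.44 in Nemo KO, 16.39, 16.67 and 16.52 in Cxcr6 KO, and 16.22, 16.38 and 16.38 in double KO. Its arrays did not overlap in double KO against Cxcr6 KO but did in Nemo KO against wildtype. The Fth1 differences were -0.30 ± 0.13 in Nemo KO against wildtype (adjusted p = 0.188) and -0.24 ± 0.11 in double KO against Cxcr6 KO (adjusted p = 0.2). The Ftl1 differences were -0.25 ± 0.17 (adjusted p = 0.396) and -0.20 ± 0.15 (adjusted p = 0.407). None passed, and these comparisons share no array but use the same spread from the fit to all arrays. Between double KO and Nemo KO the chains differed by 0.13 ± 0.11 for Fth1 and 0.11 ± 0.15 for Ftl1.

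**Figure D3:**
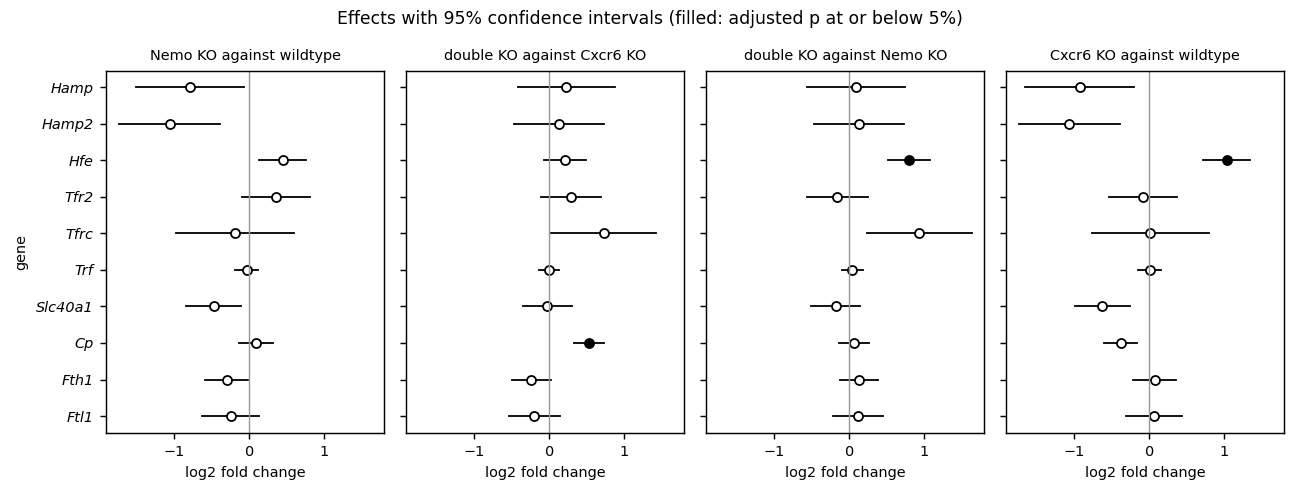
Log2 fold change (x axis) of the 10 iron genes (y axis) in the 4 pairwise comparisons, with 95% confidence intervals from the limma fit to all genes tested; filled points passed an adjusted p of 5%. The filled points are Hfe in double KO against Nemo KO (0.79) and in Cxcr6 KO against wildtype (1.03) and Cp in double KO against Cxcr6 KO (0.53).

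Over the comparisons, 2 of the 10 iron genes had a call and 8 had none. In Nemo KO against wildtype 0 of 10 passed in limma after adjustment, beside 0.158% of all genes (0.0491% higher and 0.109% lower), and 5 of 10 had an unadjusted p under 0.05, beside 24.6% of all genes. The arrays of Nemo KO and wildtype did not overlap for 6 of the 10 (2 higher, 4 lower), beside 36% of all genes (11.3% higher, 24.7% lower). For double KO against Cxcr6 KO, 2 of 10 had an unadjusted p under 0.05, beside 29.1% of all genes, and the arrays did not overlap for 3 (1 higher, 2 lower), beside 37.7% (13.3% higher, 24.4% lower). In double KO against Nemo KO these counts were 2, beside 16.8%, and 2 (both higher), beside 22.8% (12.9% higher, 9.94% lower). In Cxcr6 KO against wildtype they were 5, beside 11.1%, and 5 (1 higher, 4 lower), beside 23.9% (12.7% higher, 11.2% lower). Calls over all genes in that comparison were 0.175% higher and 0.0818% lower, and in double KO against Nemo KO 0.365% higher and 0.229% lower. The median log2 fold change of the iron genes in Nemo KO against wildtype was -0.22, against -0.04 over all genes. It was 0.17 against -0.06 in double KO against Cxcr6 KO, 0.10 against 0.04 in double KO against Nemo KO, and -0.04 against 0.01 in Cxcr6 KO against wildtype. For the interaction, the Nemo effect without Cxcr6 minus that with Cxcr6, no iron gene passed, nor did any gene (0%). In that test 3 of 10 iron genes had an unadjusted p under 0.05, beside 11.8% of all genes. They were Cp, Hamp (1.02 ± 0.43, adjusted p = 0.4) and Hamp2 (1.19 ± 0.40, adjusted p = 0.329). In all these counts Hamp and Hamp2 may not be separate observations, because their rows can share signal.

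The list of BMP input to hepcidin holds genes that carry the signal and genes that restrain it, such as Tmprss6. Of its 18 tested genes, 5 rose, Tmprss6 among them, and none fell in double KO against Cxcr6 KO. The median was 0.31 (all genes -0.06), and 3.44% of all genes rose. Without Cxcr6 KO replicate 1 or 2 the count was 3, without double KO replicate 3 it was 2, and without Cxcr6 KO replicate 3 it was 1, Bmp6. Of the 18, 15 had a higher mean in double KO and 3 a lower one (Smad1, Smad9 and Acvr2a). Bmp6, the main iron-responsive ligand and a product of liver endothelial cells, had a log2 signal of 6.31, 6.69 and 6.52 in Cxcr6 KO and 7.32, 7.51 and 7.36 in double KO, against 6.53 and 6.45 in wildtype and 6.41, 6.69 and 6.57 in Nemo KO. Every double KO array was above all others. Bmp6 rose by 0.89 ± 0.12 against Cxcr6 KO (1.85-fold, adjusted p = 0.0089) and by 0.84 ± 0.12 against Nemo KO (1.79-fold, adjusted p = 0.026), where it was the single gene of 18 called. The interaction for Bmp6 was 0.82 ± 0.17 and did not pass (adjusted p = 0.251). The call against Nemo KO ended without Nemo KO replicate 1 or 3, Cxcr6 KO replicate 3, or double KO replicate 2 or 3 (0.77 to 0.86, adjusted p 0.0509 to 0.0951), and with just the compared groups (0.0962).

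Against Cxcr6 KO the ligands Bmp2 (0.91 ± 0.17, adjusted p = 0.0226) and Gdf2, also called Bmp9 (0.82 ± 0.12, adjusted p = 0.0122), the endothelial co-receptor Eng (2.12 ± 0.37, adjusted p = 0.0181) and the protease Tmprss6 (0.67 ± 0.15, adjusted p = 0.036) also rose. Tmprss6 is a hepatocyte protease that restrains hepcidin. Bmp2 and Gdf2 were near the column medians outside double KO, between 5.26 and 5.77. Hjv, the BMP co-receptor on hepatocytes, had 12.99, 12.40 and 13.10 in double KO and 11.64, 12.24 and 12.04 in Cxcr6 KO. Its arrays did not overlap, but the difference of 0.86 ± 0.25 did not pass (adjusted p = 0.0673), nor did that from Nemo KO (0.91 ± 0.25, adjusted p = 0.145). The calls ended without single arrays: 4 for Bmp2 (Cxcr6 KO replicates 1, 2 and 3 and double KO replicate 3, 0.77 to 1.00, adjusted p 0.0563 to 0.0686), 1 for Gdf2 (Cxcr6 KO replicate 3, 0.74, adjusted p = 0.0522), 2 for Eng (Cxcr6 KO and double KO replicate 3, 2.02 to 2.19, adjusted p 0.068 to 0.0683), and 7 for Tmprss6 (Nemo KO replicate 1 and every array of both groups compared, 0.56 to 0.75, adjusted p 0.052 to 0.102). The Tmprss6 call also ended with no filter on low values (adjusted p = 0.0514).

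Markers of the cells that make these ligands moved in the same comparison. All 12 tested markers of liver endothelial cells rose in double KO against Cxcr6 KO, and their mean was 8.25 to 9.08 in double KO, 6.40 to 7.08 in Cxcr6 KO, 7.40 to 7.88 in Nemo KO and 7.06 to 7.12 in wildtype. Of 8 tested markers of stellate cells and fibroblasts, 7 rose (7.34 to 8.32 in double KO, 6.04 to 6.30 in Cxcr6 KO, 7.01 to 7.18 in Nemo KO, 6.24 to 6.73 in wildtype). Over all genes 3.44% rose there and 3.96% fell. Other lists moved too: 5 of 13 Kupffer cell and macrophage markers, 2 of 4 cholangiocyte markers and 1 of 9 proliferation markers rose. Of 3 erythroid markers 1 fell, and no marker of hepatocytes, neutrophils or T, NK and NKT cells was called. The part of these cell types in the Bmp6, Bmp2, Gdf2 and Eng values was not tested. In these samples more cells of a type and more RNA per cell cannot be told apart.

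No BMP target gene passed in any comparison, 0 of 7 tested in limma, with 1 of 7 at an unadjusted p under 0.05 in double KO against Cxcr6 KO (29.1% of all genes), 2 in Cxcr6 KO against wildtype (11.1%) and 1 in the interaction (11.8%). In double KO against Cxcr6 KO 6 of the 7 had a higher mean (median 0.12, all genes -0.06). Id1, a direct Smad target, had 6.92, 7.35 and 7.32 in Cxcr6 KO and 7.46, 7.74 and 8.55 in double KO, against 7.38 and 8.59 in wildtype and 7.20, 7.52 and 7.39 in Nemo KO. The difference between double KO and Cxcr6 KO was 0.72 ± 0.34 (adjusted p = 0.199). Id3, a further direct target, had 7.22, 7.74 and 7.79 in Cxcr6 KO and 8.59, 8.36 and 10.06 in double KO, with no overlap, and the difference of 1.42 ± 0.59 did not pass (adjusted p = 0.152). The inhibitory Smad gene Smad7 had 0.07 ± 0.12 there (adjusted p = 0.731) and the transcription factor Atoh8 0.04 ± 0.20 (adjusted p = 0.924). In Cxcr6 KO against wildtype the arrays of 4 of the 7 lay lower without overlap and 0 higher, beside 11.2% and 12.7% of all genes. The median there was -0.35, against 0.01 over all genes. Id2 had -2.07 ± 0.70 in that comparison (adjusted p = 0.297). Its arrays were at 15.98 and 17.18 in wildtype and between 13.75 and 15.10 in Cxcr6 KO.

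**Figure D4:**
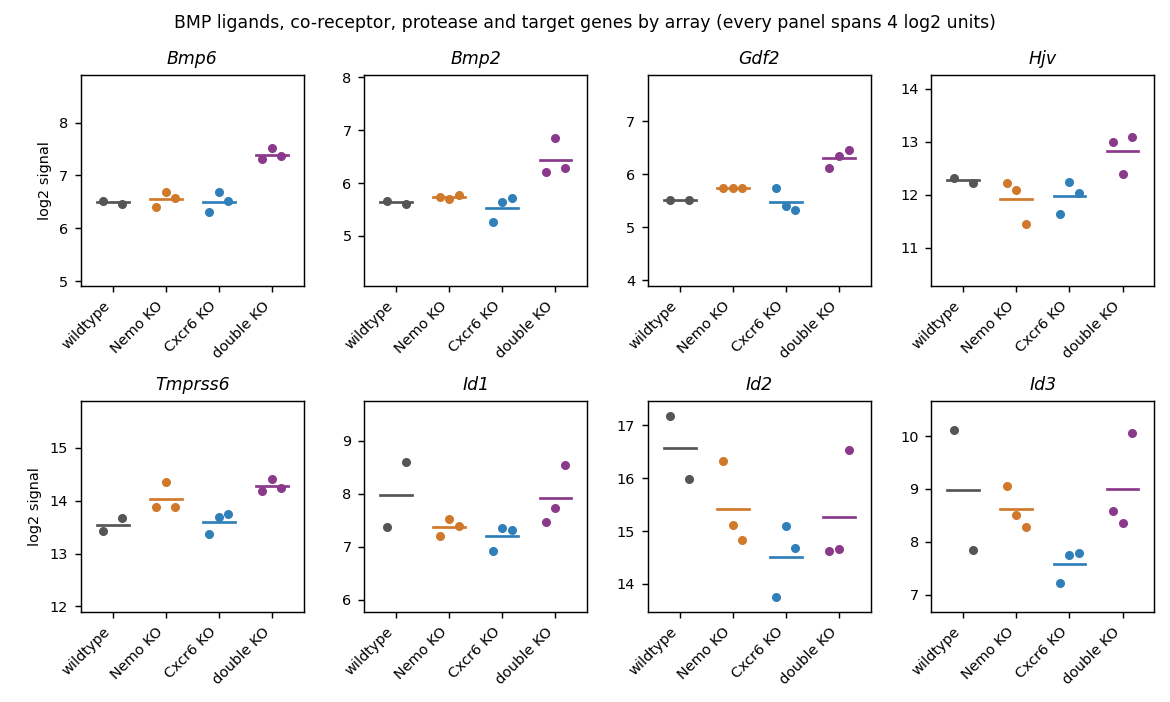
Log2 signal (y axis) of 8 genes of the BMP route to hepcidin in each array, by genotype (x axis), with a bar for each group mean; every panel spans 4 log2 units. Bmp6, Bmp2 and Gdf2 are higher in all 3 double KO arrays than in every other array. For Id1, Id2 and Id3 the arrays of wildtype and double KO overlap. The Id2 mean is 16.58 in wildtype and 15.27 in double KO.

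On the interleukin-6 route, 1 of 12 tested genes passed in any comparison, the acute-phase gene Saa1, which fell in double KO against Nemo KO, as did 0.229% of all genes. In limma 0 passed elsewhere, with 3 of 12 at an unadjusted p under 0.05 in Nemo KO against wildtype (24.6% of all genes), 2 in double KO against Cxcr6 KO (29.1%), 1 in Cxcr6 KO against wildtype (11.1%) and 2 in the interaction (11.8%). Saa1 had 15.90, 13.38 and 15.14 in Nemo KO and 11.55, 10.96 and 11.64 in double KO, against 11.02 and 12.50 in wildtype and 11.00, 10.57 and 11.23 in Cxcr6 KO. Every Nemo KO array lay above all others. Saa1 fell by 3.43 ± 0.60 in double KO against Nemo KO (adjusted p = 0.0487), and a link to the Hamp values was not tested. The Saa1 call ended without Nemo KO replicate 1 or 3 or any array of Cxcr6 KO or double KO (-3.55 to -2.88, adjusted p 0.0731 to 0.132). It also ended in 4 other settings: no filter (0.0693), quantile normalization (0.0502), the replicate number as a block (0.0895) and just the compared groups (0.143). The closely similar Saa2 had -3.54 ± 0.65 (adjusted p = 0.0567). Socs3, the feedback inhibitor that Stat3 induces, had a mean of 6.64 ± 0.36 (SD, n = 3) in Nemo KO and 6.35 to 6.37 in the other groups, and did not pass. Il6 and Il22 were below the level needed for testing.

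Transcripts of both iron regulatory proteins fell with Nemo deletion in mice without Cxcr6. Aco1 and Ireb2 encode the proteins that bind iron-responsive elements in the Tfrc and ferritin messenger RNAs. Aco1 had a log2 signal of 13.06, 13.21 and 13.47 in Cxcr6 KO and 12.67, 12.58 and 12.80 in double KO, and 12.76 and 12.74 in wildtype and 12.36, 12.36 and 12.29 in Nemo KO. Ireb2 had 12.28, 12.51 and 12.25 in Cxcr6 KO, 11.72, 11.69 and 11.48 in double KO, 12.13 and 11.83 in wildtype, and 11.72, 11.30 and 11.22 in Nemo KO. In both lines the arrays with Nemo deleted lay below those with Nemo intact. Over all genes this held for 24.7% in Nemo KO against wildtype and 24.4% in double KO against Cxcr6 KO. The share for both lines together was not counted. Aco1 fell by 0.56 ± 0.11 (adjusted p = 0.0231) and Ireb2 by 0.71 ± 0.15 (adjusted p = 0.0287) in double KO against Cxcr6 KO. In Nemo KO against wildtype they had -0.41 ± 0.12 (adjusted p = 0.0902) and -0.56 ± 0.17 (adjusted p = 0.0933). The difference between the Nemo effects was -0.14 ± 0.16 for Aco1 and -0.15 ± 0.23 for Ireb2 and did not pass.

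Of the 18 tested genes of iron uptake, storage and intracellular handling, 1 rose and 2 fell in double KO against Cxcr6 KO (median -0.03, all genes -0.06), beside 3.44% and 3.96% of all genes. The gene that rose was Scara5, a ferritin receptor, with 5.89, 5.83 and 6.41 in Cxcr6 KO, 7.16, 6.82 and 6.82 in double KO, 6.73 and 6.04 in wildtype and 8.25, 7.78 and 8.03 in Nemo KO. It rose by 0.89 ± 0.22 (adjusted p = 0.0467). In Nemo KO against wildtype it had 1.64 ± 0.25 (3.11-fold, adjusted p = 0.0542) and did not pass. In limma 0 of the list passed in the other comparisons, where 8 of 18 had an unadjusted p under 0.05 in Nemo KO against wildtype (24.6% of all genes), 8 in double KO against Nemo KO (16.8%), 4 in Cxcr6 KO against wildtype (11.1%) and 3 in the interaction (11.8%). The count of 3 became 0 without Cxcr6 KO replicate 2 or 3 or double KO replicate 3, 1 without double KO replicate 2, 5 without either wildtype array, 6 with just the compared groups and 8 with array weights. The arrays whose loss ended each call were 4 for Aco1 (Cxcr6 KO and double KO replicates 2 and 3, -0.62 to -0.45, adjusted p 0.0538 to 0.0758), 5 for Ireb2 (Cxcr6 KO replicates 1, 2 and 3, double KO replicates 2 and 3, -0.76 to -0.63, adjusted p 0.0603 to 0.101) and 8 for Scara5 (Nemo KO replicates 1 and 3 and every array of both groups compared, 0.78 to 1.07, adjusted p 0.0562 to 0.137). The Aco1 call also ended with median centring (adjusted p = 0.0547) and the Scara5 call with quantile normalization (0.0591) and no filter (0.0704).

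**Figure D5:**
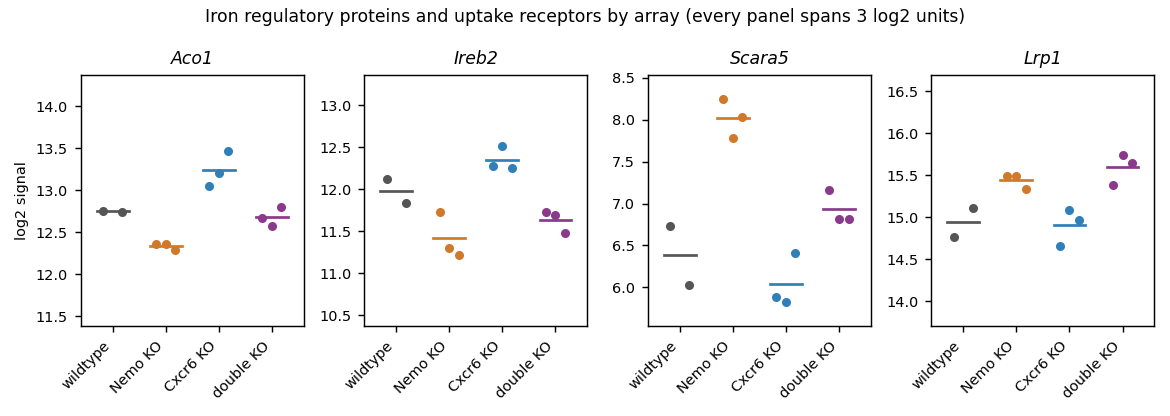
Log2 signal (y axis) of Aco1, Ireb2, Scara5 and Lrp1 in each array, by genotype (x axis), with a bar for each group mean; every panel spans 3 log2 units. Within each line, Aco1 and Ireb2 are lower in every array with Nemo deleted and Scara5 and Lrp1 are higher. In Nemo KO against wildtype 24.7% of all genes lay lower and 11.3% higher without overlap. In double KO against Cxcr6 KO these shares were 24.4% and 13.3%.

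Of 13 genes that clear haem and haemoglobin, Lrp1, the receptor for haemopexin-bound haem, rose in double KO against Cxcr6 KO (0.69 ± 0.15, adjusted p = 0.0302), beside 3.44% of all genes, and none fell. Its arrays lay between 14.65 and 15.09 in Cxcr6 KO and between 15.38 and 15.75 in double KO. The Lrp1 call ended without Nemo KO replicate 1, any Cxcr6 KO array, or double KO replicate 2 or 3 (0.56 to 0.78, adjusted p 0.0507 to 0.1). No other gene of the list passed in any comparison. Hmox1, which opens the haem ring and releases its iron, had 6.37, 7.07 and 6.70 in Cxcr6 KO and 7.06, 7.33 and 8.63 in double KO (0.96 ± 0.42, adjusted p = 0.165). Haptoglobin, Hp, had -0.41 ± 0.18 in double KO against Nemo KO (adjusted p = 0.294).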

How the data were processed

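RNA from hepatocytes (300 ng per sample, per the labels' protocols) was measured on 11 arrays. The authors' tools, per the submitters' processing notes, were RMA, Affymetrix Expression Console and Transcriptome Analysis Console. The deposited table holds log2 signal values in 65956 rows, 1 per transcript cluster. The genome build behind the rows was not given in the sources used here. Rows were named from the platform annotation, with symbols updated through identifiers against RefSeq (GRCm38.p6). For each gene the single-symbol row with the highest mean was used, and genes entered the test with a group mean of at least 5.27 (the median over row means) in 1 or more groups. All 4 groups were fitted with limma 3.58.1 in R 4.3.3 (a mean per group, 7 residual degrees of freedom, no trend, not robust). Tests were two-sided, and p-values were adjusted by Benjamini-Hochberg over all 18337 genes, with calls at 5%. Errors of differences are standard errors, and values of groups are means ± SD. Intervals are 95% intervals from the fit. The fit was tested on simulated data. Named genes were the 10 iron genes, up to 3 genes with the smallest p per list and comparison, and 10 fixed genes of hepcidin control. The 5 most correlated genes of Hamp, Hamp2 and Tfrc were also named, from a ranking without certain kinds of gene symbol. Members, lists and this rule were chosen with earlier results of these data known. Alternatives were the mean of a gene's rows, no filter, median centring, quantile normalization, trended robust variance, array weights, a replicate block, only the groups compared, and leaving out each array.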

Additional observations from a re-analysis of the deposited data

Results flagged for a closer look

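Slc39a8, a zinc and iron importer, was lower in every Cxcr6 KO array than in every wildtype array and higher in every double KO array than in every Nemo KO array. The second effect minus the first was 0.67 ± 0.18, with arrays at 9.14 and 9.35 in wildtype, 9.12, 9.14 and 8.84 in Nemo KO, 8.85, 9.01 and 8.99 in Cxcr6 KO, and 9.55, 9.21 and 9.45 in double KO. The difference was tested as the interaction and did not pass (adjusted p = 0.265). Over all genes, 11.2% lay lower without overlap in Cxcr6 KO against wildtype and 12.9% higher in double KO against Nemo KO. The share with both was not counted. None of the 10 iron genes showed such opposite, non-overlapping effects, and none passed the interaction test. Groups of 2 or 3 arrays are too small to test for a deviating array.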

How the results depend on the processing

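The number of iron genes called was 1 in each of 3 comparisons and 0 in Nemo KO against wildtype and in the interaction. In Nemo KO against wildtype and the interaction it was 0 under every alternative run. In Cxcr6 KO against wildtype it became 0 with each array centred on its median, with array weights, with a replicate block and with only the groups compared. In double KO against Nemo KO it became 0 with a replicate block and with only the groups compared. Leaving out each array gave 0 to 1 in these comparisons and in double KO against Cxcr6 KO, where no other alternative moved it. With the replicate block, the Hfe adjusted p was 0.0985 and 0.0812. Deviations of same-numbered arrays correlated above 0.1 in 6 of 15 pairs (-0.27 to 0.28), namely replicates 1 and 2 among wildtype, Nemo KO and double KO. Wildtype has only 2 numbers to pair, and where groups share 3 numbers at least 1 pair was at or below 0.1, so the numbers were not taken as pairing.

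Signs changed only for values that passed neither as reported nor under the alternative. In Cxcr6 KO against wildtype they were Tfr2 (0.037 with array weights), Tfrc (-0.0073 with median centring, -0.15 with weights) and Trf (-0.015 with centring, -0.036 with quantile normalization, -0.0026 with the replicate block). In double KO against Cxcr6 KO they were Hamp2 (-0.032 with weights), Slc40a1 (0.027 with centring) and Trf (0.053 with centring, 0.049 with quantile normalization). In double KO against Nemo KO they were Hamp (-0.34) and Hamp2 (-0.27), both with weights. In the interaction they were Fth1 (-0.067 with quantile normalization, -0.0074 with weights), Ftl1 (-0.069 and -0.055 likewise) and Tfr2 (0.066 with centring). Without single arrays the ranges that crossed 0 were in double KO against Cxcr6 KO Hamp2 (-0.097 to 0.41), Slc40a1 (-0.14 to 0.087); in double KO against Nemo KO Hamp (-0.095 to 0.40), Hamp2 (-0.10 to 0.40), Ftl1 (-0.024 to 0.23); in Cxcr6 KO against wildtype Tfrc (-0.24 to 0.22), Tfr2 (-0.20 to 0.11), Trf (-0.0035 to 0.014), Fth1 (-0.037 to 0.18), Ftl1 (-0.12 to 0.25); in the interaction Tfr2 (-0.27 to 0.068), Fth1 (-0.062 to 0.17), Ftl1 (-0.14 to 0.24). The cause of these changes was not tested.

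Over all alternatives, 874 of 940 values of the 10 iron genes kept their direction and side of the threshold, 23 lost the call and 43 changed sign. The fit with only the groups compared was not run for the interaction. The number of all genes called ran from 0 to 2380 in Nemo KO against wildtype (29 as reported), 116 to 4692 in double KO against Cxcr6 KO (1358), 11 to 971 in double KO against Nemo KO (109), 0 to 493 in Cxcr6 KO against wildtype (47) and 0 to 232 in the interaction (0). With median centring the median over all genes went from 0.04 to 0.16 in double KO against Nemo KO and from 0.03 to 0.17 in the interaction. Signals of Trf and Hamp near the top of the scale limit what these arrays can show.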
